A study of Mus musculus with 12 samples.

Results

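The 36 genes described here encode the machinery of mitosis and of the spindle checkpoint, and were chosen by symbol from the 31641 gene rows of an RNA-seq count table of mouse embryonic stem cells. All 36 symbols were found in the table. Counts came from 4 cell lines derived from C57BL/6 blastocysts. The mutant lines, Mut-1 and Mut-2, carry the genotype label Tin2 S341X, a premature stop in the shelterin subunit encoded by Tinf2. The lines WT-1 and WT-2 are wild type. Whether the mutant lines are homozygous, and how they were made, is not given in the sources used here. All lines were grown in serum and LIF, the cytokine that keeps these cells undifferentiated, on a feeder layer of mouse embryonic fibroblasts, and the RNA is that of the mixed culture. Each line has 3 libraries that the design text calls technical replicates, so the line, with n = 2 per genotype, was the unit of the genotype test.

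Mitosis is driven by cyclin-dependent kinase 1 with its A-type and B-type cyclins, and by the Polo, Aurora and NIMA-related kinases. Kinetochores built on centromeric chromatin bind spindle microtubules, and unattached kinetochores activate the spindle checkpoint, whose Mad2 and BubR1 proteins hold Cdc20 away from the anaphase-promoting complex. Once the checkpoint is satisfied, securin and cyclin B are degraded, separase cuts cohesin, and kinesins of the central spindle prepare cell division. Most of these genes are transcribed in late S, G2 and M phase, and embryonic stem cells divide rapidly with a short G1 phase.

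Library totals ran from 14766477 to 17891894 counts. Tinf2 itself, the gene named in the genotype label, lay between 19.7 and 30.1 CPM (counts scaled to library size, here with TMM factors) in the 6 mutant libraries and between 57.7 and 69.2 CPM in the 6 wild-type libraries, with no overlap (log2 fold change -1.30, edgeR adjusted p = 0.0652). All 8 stem cell markers were detected in every library, the lowest at 89.8 CPM, and their median log2 fold change was -0.06. A list of 30 fibroblast markers, none of them at 0 in any library, summed to 6422 to 14233 CPM in mutant libraries (median 10305) and to 5789 to 8183 CPM in wild-type libraries (median 6993). All 30 were above 0 on the log2 fold change scale, with a median of 0.58. Their counts made up 0.615% to 1.50% of a mutant library and 0.579% to 0.816% of a wild-type library. Mut-1 replicate 1 (1.50%), Mut-2 replicate 2 (1.40%) and Mut-2 replicate 1 (1.28%) had the highest shares, and are called the feeder-rich libraries below. In such bulk RNA, fewer dividing stem cells and less mitotic RNA per cell cannot be told apart. Of the other cell types that such a culture can hold, 6 of 6 tested endoderm markers were above 0 (median 0.56). Their list summed to 23.7 to 52.5 CPM in mutant and 16.9 to 32.6 CPM in wild-type libraries, with 3 of 8 at 0 in some library. Among them Gata4 (0.73) lies on chromosome 14, where 92.1% of tested genes were above 0. Of blood markers 3 of 3 tested were above 0 (median 0.11), and of 6 neural markers 3 were above and 3 below 0 (median -0.05).

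The mitosis genes lay slightly lower in the mutant lines as a group, and no single gene passed the genotype test. Of the 36 genes 33 had a log2 fold change below 0, a direction taken by 50.2% of all 18749 genes tested. The median was -0.18 for the 36 genes, against -0.00 over all genes, and the values spanned -0.41 for Aurkb to 0.28 for Dlgap5. With edgeR's quasi-likelihood test on line totals and Benjamini-Hochberg adjustment over all genes, none of the 36 was called at 0.05, where the background was 0% of all genes, and their adjusted p-values ran from 0.248 to 0.925. At an unadjusted p under 0.05 the test gave 7 lower genes (Mad2l1, Bub1, Bub1b, Ccna2, Aurkb, Espl1 and Kif23), against 3.88% of all genes. That count was 0 without the 3 feeder-rich libraries, where 401 of all 18090 genes were lower at that p. With single libraries left out, it ran from 2 without Mut-2 replicate 2 (541 of 18727 genes) to 14 without Mut-2 replicate 3 (1172 of 18802). It was 3 without Mut-1 replicate 1 (479 of 18732) or without Mut-2 replicate 1 (554 of 18668), and 4 without WT-2 replicate 2 (535 of 18726). The number over all genes thus moved with the left-out libraries too. With all libraries and genes the test gave 1 higher gene, Dlgap5, against 9.17% of all genes. Without the genes of chromosome 14, Dlgap5 among them, the test gave 5 lower members (593 of all 18170 genes). Bub1 (edgeR unadjusted p = 0.0527) and Ccna2 (0.0566) were then no longer under 0.05. DESeq2 called none of the 36 in the genotype comparison (2.39% of the genes it gave an adjusted p), while limma with the line as a random block, and edgeR with the replicate number as a block, each called Mad2l1.

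**Figure D1:**
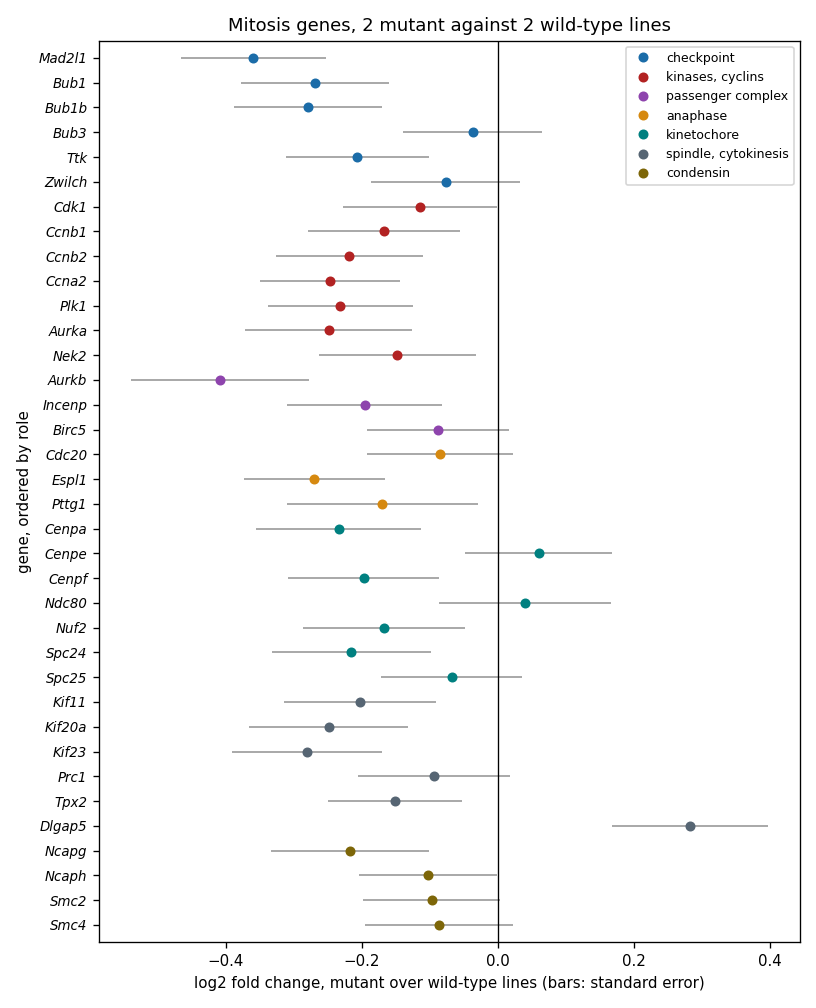
Log2 fold change of the 36 mitosis genes, mutant over wild-type lines, from the line totals (x axis; bars are standard errors, n = 2 lines per genotype), with genes on the y axis ordered and coloured by role. The points lie left of 0 for 33 genes, and Dlgap5 at 0.28 and Aurkb at -0.41 mark the ends of the range.

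In 26 of the 36 genes both mutant lines lay below both wild-type lines, an ordering seen in 21.8% of all genes. In 1 gene, Dlgap5, both mutant lines lay above, against 23.8% of all genes. No mitosis gene had every mutant library above every wild-type library, against 1.33% of all genes. Every mutant library lay below every wild-type library in a single mitosis gene, Ttk, against 0.645% of all genes. The 36 genes were all well counted, with no library under 600 raw counts for any of them and mean levels of 43.1 to 382 CPM. Per kilobase of exon, mean levels were highest for Cdc20 (133 CPM per kb), Ccnb2 (109.6 CPM per kb) and Ccnb1 (90.7 CPM per kb), and lowest for the kinetochore genes Nuf2 (6.79 CPM per kb), Ndc80 (7.70 CPM per kb) and Cenpf (8.48 CPM per kb).

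The checkpoint genes had log2 fold changes below 0 in 6 of 6 cases (median -0.24), and none was called in the main test. Their summed level was 660 to 758 CPM in the 6 mutant libraries and 763 to 862 CPM in the 6 wild-type libraries, so the sums did not overlap. The feeder marker sum of the same libraries overlapped between the genotypes and was higher at its median in the mutants, and its part in the difference was not tested.

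Mad2l1 (chromosome 6, 66535390 to 66547220, plus strand, GRCm38) encodes Mad2, the checkpoint protein that binds and holds Cdc20. It had 74.1, 77.3 and 81.9 CPM in the Mut-1 libraries and 74.6, 83.8 and 98.2 CPM in the Mut-2 libraries, against 105, 104 and 102 CPM in those of WT-1 and 97.1, 111 and 103 CPM in those of WT-2. Of the mutant libraries, 5 lay below the lowest wild-type library, and Mut-2 replicate 3 lay just above it. The mean was 81.0 ± 5.67 CPM in mutant lines and 104 ± 0.307 CPM in wild-type lines (SD, n = 2 each; log2 fold change -0.36, SE 0.11, edgeR adjusted p = 0.248). The limma fit on the 12 libraries gave -0.36 (SE 0.08, adjusted p = 0.0415), and edgeR with the replicate number as a block gave -0.35 (SE 0.08, adjusted p = 0.0391), so that Mad2l1 fell by these fits. The limma call was lost once the feeder share entered as a covariate (-0.29, adjusted p = 0.309), as it was in limma without the feeder-rich libraries (-0.28, adjusted p = 0.405). The backgrounds of the fits that called it were 0.267% and 0.375% of all genes called lower. In limma the libraries of a line were taken as correlated by -0.00200, so both fits rest in practice on the spread between libraries.

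Bub1b, on chromosome 2, encodes BubR1, the kinase-like partner of Mad2 in the checkpoint complex. It had 159, 145 and 147 CPM in the Mut-1 libraries and 168, 143 and 185 CPM in the Mut-2 libraries, against 186, 187 and 175 CPM in those of WT-1 and 221, 189.7 and 181 CPM in those of WT-2. The groups overlapped through Mut-2 replicate 3. Line means were 157 ± 11.4 CPM in mutant and 191 ± 9.84 CPM in wild-type lines (SD, n = 2 each), a log2 fold change of -0.28 (SE 0.11, edgeR adjusted p = 0.334).

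Bub1, the kinase that marks centromeric histone H2A and recruits other checkpoint proteins, averaged 138 ± 2.68 CPM in mutant and 166 ± 14.2 CPM in wild-type lines (SD, n = 2 each; log2 fold change -0.27, edgeR adjusted p = 0.350). In Mut-2 against WT-2, DESeq2 called Bub1 (log2 fold change -0.36, adjusted p = 0.0224, with 3.88% of the genes it tested called) and edgeR did not (adjusted p = 0.133). Ttk encodes Mps1, the kinase that starts checkpoint signalling at kinetochores. It is shown here because its groups did not overlap, a choice made after its values were seen. It had 50.8, 50.6 and 51.3 CPM in the Mut-1 libraries and 54.0, 47.7 and 51.4 CPM in the Mut-2 libraries, against 55.4, 54.6 and 61.9 CPM in those of WT-1 and 62.5, 55.4 and 61.0 CPM in those of WT-2. The gap between the highest mutant and the lowest wild-type library was small, and the log2 fold change was -0.21 (SE 0.11, edgeR adjusted p = 0.447). Bub3, the adaptor that carries Bub1 and BubR1 to kinetochores, differed least among the checkpoint genes, at -0.04. Zwilch, a subunit of the RZZ complex at kinetochores, was at 0.07 in Mut-1 against WT-1 and -0.22 in Mut-2 against WT-2.

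**Figure D2:**
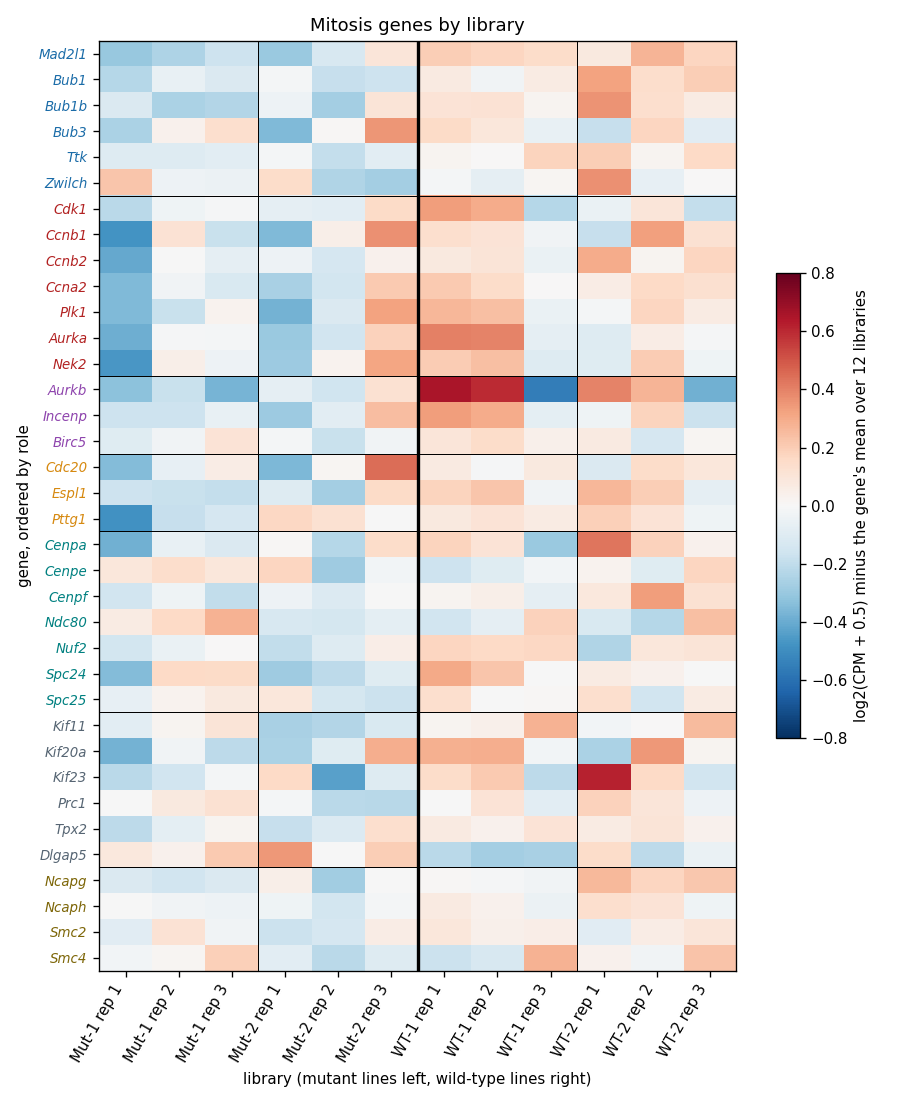
Level of each mitosis gene in each of the 12 libraries, as log2(CPM + 0.5) minus the gene's mean over the libraries (colour), with genes in rows ordered by role and the mutant libraries left of the wild-type libraries. Mut-1 replicate 1 holds the lowest value for 12 of the 36 genes and WT-2 replicate 1 the highest for 13, and the shares over all genes were not counted.

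The mitotic kinases and cyclins had log2 fold changes below 0 in 7 of 7 cases (median -0.22), and none was called. Their sums overlapped, at 915 to 1419 CPM in mutant and 1144 to 1393 CPM in wild-type libraries, and the highest sum of all 12 libraries belonged to a mutant library. Ccna2 encodes cyclin A2, the cyclin of S and G2 phase. It had 128, 161 and 151 CPM in the Mut-1 libraries and 137, 148 and 189.8 CPM in the Mut-2 libraries, against 189.6, 182 and 165 CPM in those of WT-1 and 171, 183 and 179.5 CPM in those of WT-2. All mutant libraries but Mut-2 replicate 3 lay below all wild-type libraries. The line means were 151 ± 8.87 CPM in mutant and 179 ± 1.28 CPM in wild-type lines (SD, n = 2 each), with a log2 fold change of -0.25 (SE 0.10, edgeR adjusted p = 0.366).

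Ccnb1 encodes cyclin B1, the main activator of Cdk1 at mitotic entry, and was the most abundant gene of this class in CPM. It had 273, 411 and 335 CPM in the Mut-1 libraries and 297, 392 and 488 CPM in the Mut-2 libraries, against 417, 408 and 372 CPM in those of WT-1 and 334, 475 and 412 CPM in those of WT-2. The groups overlapped over most of their range, and the spread within each mutant line exceeded the difference between genotypes. The means were 360.3 ± 38.0 CPM in mutant and 405 ± 4.15 CPM in wild-type lines (SD, n = 2 each; log2 fold change -0.17, SE 0.11, edgeR adjusted p = 0.563). In the other genes of this class the groups overlapped too, by differing amounts. Cdk1, the kinase itself, was at -0.11, the other B-type cyclin Ccnb2 at -0.22, the Polo kinase Plk1 at -0.23, the spindle-pole kinase Aurka at -0.25 and the centrosome kinase Nek2 at -0.15 on the log2 fold change scale. Annotated pseudogenes of Ccnb1 and Ccnb2 exist, and how the counting shared reads with them is not given in the sources used here.

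The chromosomal passenger genes were lower for 3 of 3 members (median -0.20, none called). Aurkb encodes the Aurora B kinase that corrects faulty kinetochore attachments, and had the lowest log2 fold change of the 36 genes. It had 58.6, 65.1 and 56.9 CPM in the Mut-1 libraries and 70.3, 65.9 and 80.4 CPM in the Mut-2 libraries, against 116, 112 and 50.1 CPM in those of WT-1 and 97.4, 89.3 and 56.4 CPM in those of WT-2. Replicates 1 and 2 of both wild-type lines lay above every mutant library, while WT-1 replicate 3 was the lowest of all 12 libraries and WT-2 replicate 3 lay below all but 1 of the others. The line means were 65.8 ± 8.94 CPM in mutant and 87.2 ± 7.69 CPM in wild-type lines (SD, n = 2 each; log2 fold change -0.41, SE 0.13, edgeR adjusted p = 0.274). Without WT-1 replicate 3 the genotype value was -0.58, and without WT-2 replicate 3 it was -0.50. Between Mut-1 and WT-1 the log2 fold change was -0.62 (edgeR adjusted p = 0.425). It was -0.92 without WT-1 replicate 3 (adjusted p = 0.0314, with 2.64% of all genes called), and without a filter on low counts -0.63 (adjusted p = 0.0112, with 1.72% called). The fit without WT-1 replicate 3 leaves out the WT-1 library of lowest Aurkb and keeps WT-1 replicates 1 and 2, whose counts differed little (chi-square per degree of freedom 1.62, against 10.9 or more within lines otherwise), so that its p rests on a small spread within WT-1. With those replicates summed to 1 library edgeR called none of the 36 genes in this pair, whose lowest value was then -0.47.

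The replicate 3 libraries of the wild-type lines stood apart for other members too. In 11 of the 36 genes, Aurkb among them, both replicate 3 libraries lay below the other 4 wild-type libraries, a pattern of 14.4% of all genes. In 3 genes, Ndc80, Kif11 and Smc4, both lay above, against 15.4% of all genes. Incenp, the scaffold of the passenger complex, was among the 11. It had 140.3, 140.1 and 151 CPM in the Mut-1 libraries and 129, 148 and 187 CPM in the Mut-2 libraries, against 199, 193 and 149 CPM in those of WT-1 and 154, 178 and 139 CPM in those of WT-2. The groups overlapped, with WT-1 replicates 1 and 2 above all mutant libraries. Means were 148 ± 7.61 CPM in mutant and 169 ± 16.6 CPM in wild-type lines (SD, n = 2 each; log2 fold change -0.20, SE 0.11, edgeR adjusted p = 0.503). Birc5, which encodes Survivin, was at -0.09.

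The genes that trigger anaphase were lower for 3 of 3 members (median -0.17, none called). Espl1 (chromosome 15) encodes separase, the protease that cuts cohesin. It had 145, 144 and 143 CPM in the Mut-1 libraries and 152, 135 and 182 CPM in the Mut-2 libraries, against 185, 190.4 and 161 CPM in those of WT-1 and 197, 188 and 155 CPM in those of WT-2. Again only Mut-2 replicate 3 reached the wild-type range. Means were 149 ± 9.13 CPM in mutant and 180.0 ± 0.781 CPM in wild-type lines (SD, n = 2 each; log2 fold change -0.27, SE 0.10, edgeR adjusted p = 0.332).

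Cdc20 encodes the activator of the anaphase-promoting complex that the checkpoint restrains. It had 194, 236 and 259 CPM in the Mut-1 libraries and 193, 250.4 and 338 CPM in the Mut-2 libraries, against 260.4, 246 and 261 CPM in those of WT-1 and 228, 274 and 264 CPM in those of WT-2. Mutant libraries spread on both sides of the wild-type range, with Mut-2 replicate 3 the highest of all. The means of 242 ± 20.9 CPM in mutant and 257 ± 1.79 CPM in wild-type lines differed by less than the spread between mutant lines (SD, n = 2 each; log2 fold change -0.09, SE 0.11, edgeR adjusted p = 0.783). Without Mut-2 replicate 1 the value of Cdc20 was 0.024. Pttg1, which encodes securin, had 56.4, 69.3 and 71.8 CPM in the Mut-1 libraries and 88.7, 85.9 and 78.8 CPM in the Mut-2 libraries, against 77.1 to 90.2 CPM in the wild-type libraries. The Mut-1 libraries thus lay below all wild-type libraries and the Mut-2 libraries within their range, though neither pair of lines was called for Pttg1 (edgeR adjusted p = 0.314 for the first pair and 0.991 for the second). Mut-2 against Mut-1 was not called for Pttg1 either (log2 fold change 0.36, edgeR adjusted p = 0.497), nor was the difference of the mutant effects (edgeR adjusted p = 0.620).

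Kinetochore genes were lower for 5 of 7 members (median -0.17, none called). Cenpa encodes the histone H3 variant that marks centromeres. It had 125, 157 and 152 CPM in the Mut-1 libraries and 165, 139.8 and 182 CPM in the Mut-2 libraries, against 185, 177 and 134 CPM in those of WT-1 and 220.4, 186 and 168 CPM in those of WT-2. The groups overlapped through Mut-2 replicate 3 and WT-1 replicate 3. Means were 152 ± 13.6 CPM in mutant and 179 ± 18.6 CPM in wild-type lines (SD, n = 2 each; log2 fold change -0.23, SE 0.12, edgeR adjusted p = 0.453). Among the microtubule-binding Ndc80 complex, Ndc80 was at 0.04, Nuf2 at -0.17, Spc24 at -0.22 and Spc25 at -0.07. The kinesin gene Cenpe was at 0.06 and Cenpf, a large protein of the outer kinetochore, at -0.20.

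Spindle and cytokinesis genes were lower for 5 of 6 members (median -0.18, none called). Kif23 encodes a kinesin of the central spindle needed for cytokinesis. It had 93.0, 96.9 and 107 CPM in the Mut-1 libraries and 121, 79.8 and 100.4 CPM in the Mut-2 libraries, against 119.7, 125 and 93.3 CPM in those of WT-1 and 166, 121 and 96.9 CPM in those of WT-2. The mutant range, with Mut-2 replicate 1 at its top, held all wild-type libraries but WT-1 replicate 2 and WT-2 replicate 1. Means were 99.5 ± 2.31 CPM in mutant and 121 ± 11.0 CPM in wild-type lines (SD, n = 2 each; log2 fold change -0.28, SE 0.11, edgeR adjusted p = 0.341). Tpx2 encodes the microtubule nucleation factor that activates Aurora A. It had 185, 202 and 217 CPM in the Mut-1 libraries and 188, 198 and 234 CPM in the Mut-2 libraries, against 224, 219 and 229.9 CPM in those of WT-1 and 224, 229 and 218 CPM in those of WT-2. The wild-type libraries spanned a narrow range that only Mut-2 replicate 3 reached, and in fact exceeded. Means were 203 ± 4.58 CPM in mutant and 225 ± 1.26 CPM in wild-type lines (SD, n = 2 each; log2 fold change -0.15, SE 0.10, edgeR adjusted p = 0.553). The bipolar spindle motor Kif11 was at -0.20, the central spindle motor Kif20a at -0.25 and the microtubule bundler Prc1 at -0.09.

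Dlgap5, which encodes the spindle protein HURP, had the highest log2 fold change of the 36 genes, for which it is shown in full after its values were seen, and lies on chromosome 14 (47387779 to 47418407, minus strand, GRCm38). It had 138, 134 and 151 CPM in the Mut-1 libraries and 166, 130.0 and 149 CPM in the Mut-2 libraries, against 112, 108 and 109 CPM in those of WT-1 and 144, 113 and 126 CPM in those of WT-2. The groups overlapped through WT-2 replicate 1. Means were 145 ± 6.70 CPM in mutant and 119 ± 12.2 CPM in wild-type lines (SD, n = 2 each; log2 fold change 0.28, SE 0.11, edgeR adjusted p = 0.353). Genes of chromosome 14 as a whole had a median log2 fold change of 0.38 over 579 tested genes, and 92.1% of them were above 0. Of 5 further mitosis genes on that chromosome 4 were above 0, at 0.46 for Bora, 0.31 for Ska3, 0.23 for Haus4 and 0.21 for Wapl, while Esco2 was at -0.01. Tinf2 lies on chromosome 14 as well.

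The condensin genes, which compact mitotic chromosomes, were lower for 4 of 4 members (median -0.10, none called). Ncapg, a subunit of condensin I, had 68.3, 66.4 and 68.1 CPM in the Mut-1 libraries and 76.5, 60.8 and 73.7 CPM in the Mut-2 libraries, against 74.4, 73.6 and 72.6 CPM in those of WT-1 and 88.6, 83.3 and 85.9 CPM in those of WT-2. The Mut-2 libraries overlapped WT-1 but not WT-2. Means were 68.8 ± 2.57 CPM in mutant and 80.0 ± 8.41 CPM in wild-type lines (SD, n = 2 each; log2 fold change -0.22, SE 0.12, edgeR adjusted p = 0.470). Smc4, a core ATPase of both condensins, had 254, 259.9 and 294 CPM in the Mut-1 libraries and 243, 221 and 239.5 CPM in the Mut-2 libraries, against 229, 235 and 313 CPM in those of WT-1 and 264, 252 and 302 CPM in those of WT-2. The groups overlapped throughout, and the means were 251 ± 22.3 CPM in mutant and 267 ± 7.23 CPM in wild-type lines (SD, n = 2 each; log2 fold change -0.09, SE 0.11, edgeR adjusted p = 0.781). Ncaph and Smc2 were both at -0.10. Ncaph varied least of the 36 genes, with a highest library 1.22 times the lowest, and Aurkb most, at 2.32 times. Exons of 8 members, among them Ccna2, Cdc20, Kif20a, Prc1 and Ncapg, overlap another gene, so part of their counts may be the neighbour's.

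The summed level of the 36 genes was 4230, 4774 and 4789 CPM in the Mut-1 libraries and 4481, 4447 and 5274 CPM in the Mut-2 libraries, against 5314, 5248 and 4865 CPM in those of WT-1 and 5182, 5291 and 5062 CPM in those of WT-2. All mutant libraries but Mut-2 replicate 3 lay below all wild-type libraries. The 3 lowest sums were those of the 3 feeder-rich libraries. Mut-1 replicate 1 held the lowest level of 12 members, Mut-2 replicate 2 of 9 and Mut-2 replicate 1 of 6. At the other end, Mut-2 replicate 3 held the highest level of 7 members, all of them kinases, cyclins, Cdc20, Bub3 or Tpx2. The shares of all genes with their lowest or highest level in these libraries were not counted.

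**Figure D3:**
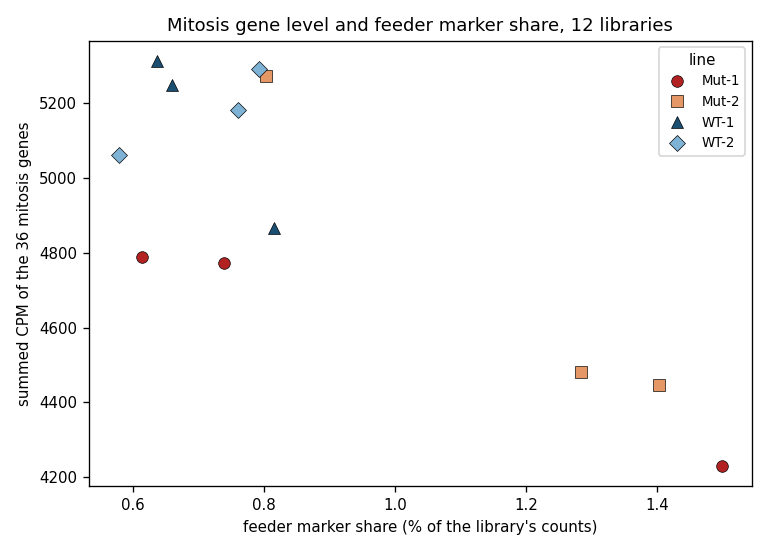
Summed CPM of the 36 mitosis genes (y axis) against the share of the library's counts in 30 fibroblast markers (x axis, %), with 1 point per library and a symbol per line. The 3 libraries at 1.28% to 1.50% have the lowest sums, at 4230 to 4481 CPM.

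Without the feeder-rich libraries the genotype difference was smaller for most members. Of Mut-2 only replicate 3 was then left, so the value of that line was that of a single library. The median log2 fold change was -0.07 with 26 of 36 genes below 0, against 49.3% of all 18090 genes then tested, and 28 genes lay nearer 0 than before. Bub3 (0.21), Cdc20 (0.20), Ccnb1 (0.09), Nek2 (0.09), Plk1 (0.03), Cdk1 (0.01) and Smc2 (0.01) then lay above 0. Of these, Bub3, Cdc20, Ccnb1, Nek2 and Plk1 had their highest level of all libraries in Mut-2 replicate 3. The kinases and cyclins had a median of 0.01 with 3 of 7 below 0, and the checkpoint genes a median of -0.20 with 5 of 6 below 0. Aurkb was at -0.30, Bub1 at -0.26, Kif23 at -0.25, Mad2l1 at -0.22, Bub1b at -0.20, Zwilch at -0.20 and Ttk at -0.19. Dlgap5 was at 0.30. With the feeder share as a covariate in limma the median over the 36 genes was -0.08, against -0.19 in the same fit without it, and 29 genes were below 0, with none called by limma (0.204% of all genes called). The checkpoint median in that fit was -0.21, and the kinase and cyclin median -0.05. The feeder share overlapped between the genotypes, at 0.615% to 1.50% in mutant and 0.579% to 0.816% in wild-type libraries. It was thus only partly separable from the genotype, and its part in the difference was not tested. The difference between the classes was not tested either.

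**Figure D4:**
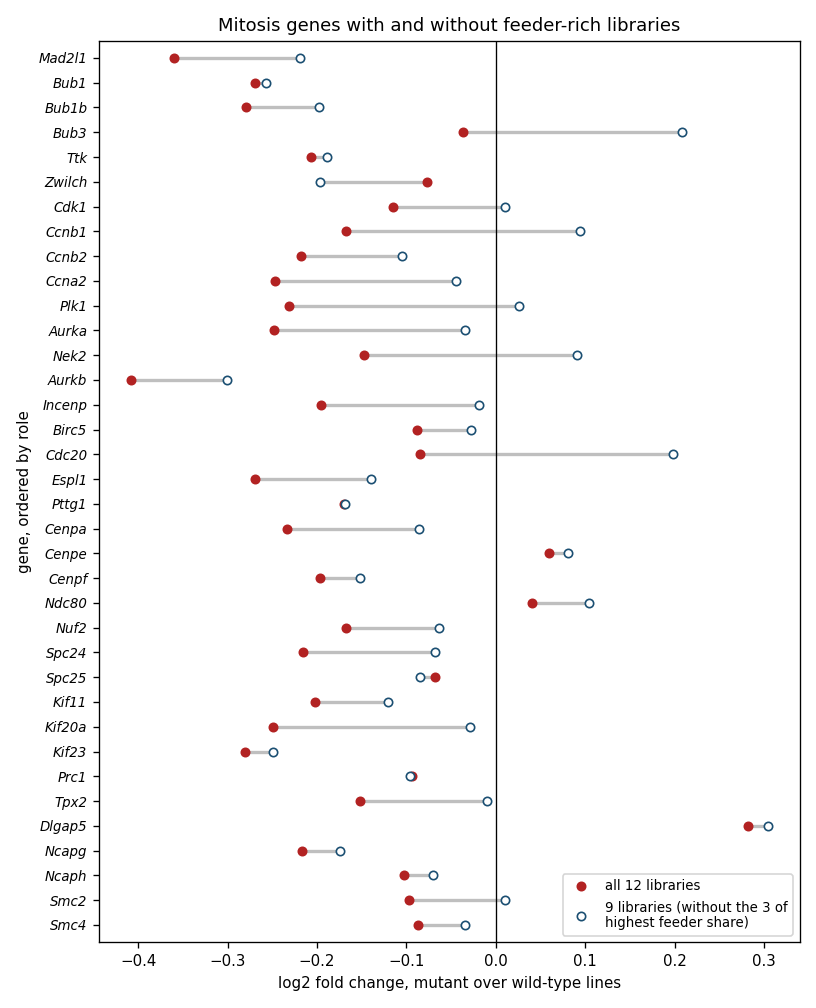
Log2 fold change of each mitosis gene, mutant over wild-type lines (x axis), with all 12 libraries (filled points) and with 9 libraries, leaving out the 3 of highest fibroblast marker share (open points). The open points lie nearer 0 for 28 of 36 genes, and the kinase and cyclin genes move furthest to the right as a class, to a median of 0.01. For the open points Mut-2 is represented by replicate 3 alone.

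The pairs of lines gave the same sign for most members. In Mut-1 against WT-1, 30 of 36 genes were below 0 (46.9% of all genes; median of the members -0.17), and edgeR called none (0.327% of all genes called). At an unadjusted p under 0.05 that pair had 7 lower members (4.81% of all genes) and 1 higher member (6.47% of all genes). In Mut-2 against WT-2, 30 of 36 were again below 0 (50.1% of all genes; median -0.13), and edgeR called none (0.925% of all genes called, or 1.85% with the replicate number as a block). Its unadjusted p gave 5 lower members (5.45% of all genes) and no higher member (9.67% of all genes). These counts rest on single libraries, and the numbers over all genes (in brackets) moved with the left-out libraries too. The Mut-1 pair had 2 lower members without WT-1 replicate 1 (251 of all 16937 genes) or without WT-1 replicate 2 (249 of 16931). It also had 2 with these summed (254 of 16916). It had 3 without Mut-1 replicate 1 (558 of 16910), 4 without Mut-1 replicate 3 (513 of 16917) and 11 without WT-1 replicate 3 (1692 of 16927). The Mut-2 pair had 1 without Mut-2 replicate 2 (566 of 16922) and 8 without Mut-2 replicate 3 (873 of 16981). It also had 8 without Mut-1 replicate 1 (1035 of 16910), which belongs to neither line of that pair but to the fit of all 12 libraries. Without the feeder-rich libraries the Mut-1 pair had 3 lower members at that p (579 of 17413), with 29 members below 0 (8803 of 17413). The Mut-2 pair, then with replicate 3 as the only Mut-2 library, had 21 members below 0 (9162 of 17413). These pairs share no library, and 25 genes were below 0 in both. The share of all genes below 0 in both was not counted.

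Between lines of the same genotype the members leaned less to 1 side. In WT-2 against WT-1, 18 of 36 were below 0 (48.2% of all genes; median 0.00), and edgeR called none (0.0181% of all genes called). None of the 36 had an unadjusted p under 0.05, against 3.44% of all genes lower and 4.17% higher. In Mut-2 against Mut-1, 12 of 36 were below 0 (47.1% of all genes; median 0.06), and edgeR called none (0.26% of all genes called). At an unadjusted p under 0.05 there was no lower member (3.65% of all genes) and 1 higher member (3.24% of all genes). The difference between the mutant effects, Mut-2 minus WT-2 less Mut-1 minus WT-1, was called for none of the 36 genes (0.0726% of all genes called), with a median of 0.00 and 18 of 36 below 0 (50.1% of all genes). None had an unadjusted p under 0.05, against 4.15% of all genes lower and 3.93% higher. DESeq2 called Bub1 in Mut-2 against WT-2 and none of the 36 in the other line comparisons.

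Of 116 further mitosis genes 115 were tested, and 103 were below 0 (50.2% of all genes), with a median log2 fold change of -0.15. None was called by edgeR. At an unadjusted p under 0.05 there were 18 lower genes (3.88% of all genes) and 2 higher genes (9.17% of all genes). Mut-1 replicate 1 held the lowest level of 26 of the 115, Mut-2 replicate 2 of 20 and Mut-2 replicate 1 of 19. These are the feeder-rich libraries, and the part of the feeder share was not tested. The share of all genes lowest in each of these libraries was not counted. Kinetochore genes were lower for 22 of 25, among them Cenpu, a subunit of the inner centromere network, with 13.2 ± 1.77 CPM in mutant and 18.7 ± 1.18 CPM in wild-type lines. Spindle and cytokinesis genes were lower for 29 of 32, among them the augmin subunit Haus1 with 44.9 ± 1.38 CPM in mutant and 60.6 ± 6.46 CPM in wild-type lines. Checkpoint genes were lower for 8 of 10, among them Trip13, the ATPase that remodels Mad2, with 59.4 ± 3.83 CPM in mutant and 74.3 ± 2.03 CPM in wild-type lines. Genes of the anaphase-promoting complex were lower for 17 of 18, including its inhibitor Fbxo5 at -0.32. Condensin and cohesin genes were lower for 17 of 19, including the condensin II subunit Ncapg2 with 43.0 ± 0.565 CPM in mutant and 53.0 ± 0.421 CPM in wild-type lines. Mitotic entry genes were lower for 10 of 11. The exception was Bora, the activator of Aurora A and Polo kinase, with 81.4 ± 1.83 CPM in mutant and 59.2 ± 2.40 CPM in wild-type lines, on chromosome 14 (SD, n = 2 each throughout).

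Genes of other cell cycle phases were set beside these. All 20 G1/S and replication genes were below 0 (50.2% of all genes), with a median of -0.25. At an unadjusted p under 0.05 there were 10 lower genes (3.88% of all genes). The feeder-rich libraries held the lowest level of each: Mut-1 replicate 1 of 14, Mut-2 replicate 1 of 3 and Mut-2 replicate 2 of 3. How many of all genes were lowest in these libraries was not counted. The sums of the 20 genes overlapped, at 3277 to 5419 CPM in mutant and 4282 to 5490 CPM in wild-type libraries. The part of the feeder share was not tested. The licensing factor Cdc6 had 52.5 ± 1.71 CPM in mutant and 72.7 ± 3.52 CPM in wild-type lines (SD, n = 2 each; log2 fold change -0.47, edgeR adjusted p = 0.188). The regulators that bind cell cycle promoters, of the E2F and MuvB families, were lower for 14 of 17 with a median of -0.09. Tfdp1, the DNA-binding partner of E2F proteins, had 174 ± 5.40 CPM in mutant and 242 ± 16.1 CPM in wild-type lines (SD, n = 2 each; edgeR adjusted p = 0.182).

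The promoters of these genes are shown because genes of G2 and M phase are known to be controlled through the CHR element, bound by the MuvB complex, often with CCAAT boxes bound by NF-Y. RefSeq promoter windows on GRCm38.p6, from 250 bases before to 50 bases after the annotated start, were matched for 27 of the 36 genes. A gene was counted if any of its windows held the letters. The CHR letters TTTGAA or TTCGAA, on either strand, stood in a window of 19 of 27 genes (70.4%), against 21.7% of all 27025 genes with a window. CCAAT on either strand stood in 21 of 27 (77.8%), against 41.1% of all genes with a window. Both stood in the same window for 18 of 27 (66.7%), against 8.61% of all genes with a window. The E2F letters TTTCCCGC, TTTGGCGC, TTTCGCGC or TTTGCCGC on either strand stood in 2 of 27 (7.41%), against 2.60% of all genes with a window. Among 103 further mitosis genes with a window 49.5% held the CHR letters, 55.3% CCAAT, 31.1% both and 13.6% E2F letters. Below are the 120 bases before to 30 bases after the start of 6 genes with both motifs and of Mad2l1, whose window held none of them. Each is written 5′ to 3′ on the gene's strand, with CHR, CCAAT and E2F matches on either strand in capitals, so that ATTGG and TTCAAA are matches on the opposite strand. Ttk is at chr9:83834569-83834718 on the plus strand, Cdk1 at chr10:69352883-69353032 on the minus strand, Ccnb2 at chr9:70421525-70421674 on the minus strand and Cdc20 at chr4:118437314-118437463 on the minus strand. Espl1 is at chr15:102296173-102296322, Kif11 at chr19:37376262-37376411 and Mad2l1 at chr6:66535101-66535250, all on the plus strand. The Mad2l1 window lies wholly before the GENCODE gene start at 66535390, and the letters around that start were not searched.
Ttk: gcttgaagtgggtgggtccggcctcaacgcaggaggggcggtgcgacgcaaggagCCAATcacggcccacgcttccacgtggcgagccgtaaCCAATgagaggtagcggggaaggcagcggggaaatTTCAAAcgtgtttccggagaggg
Cdk1: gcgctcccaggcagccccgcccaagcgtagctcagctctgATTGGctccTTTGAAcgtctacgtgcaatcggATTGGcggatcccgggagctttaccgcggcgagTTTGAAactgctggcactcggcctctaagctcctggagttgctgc
Ccnb2: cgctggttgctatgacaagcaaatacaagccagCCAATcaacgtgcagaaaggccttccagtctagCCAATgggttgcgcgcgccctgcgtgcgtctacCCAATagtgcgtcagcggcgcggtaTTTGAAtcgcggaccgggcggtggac
Cdc20: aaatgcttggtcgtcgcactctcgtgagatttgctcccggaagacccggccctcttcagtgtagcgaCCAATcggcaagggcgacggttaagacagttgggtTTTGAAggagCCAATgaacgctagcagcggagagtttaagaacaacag
Espl1: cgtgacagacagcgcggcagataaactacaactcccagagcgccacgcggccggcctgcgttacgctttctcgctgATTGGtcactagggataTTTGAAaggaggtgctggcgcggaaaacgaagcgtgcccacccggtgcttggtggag
Kif11: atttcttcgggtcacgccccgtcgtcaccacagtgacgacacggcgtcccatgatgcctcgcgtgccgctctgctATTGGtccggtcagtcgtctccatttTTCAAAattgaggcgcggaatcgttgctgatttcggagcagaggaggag
Mad2l1: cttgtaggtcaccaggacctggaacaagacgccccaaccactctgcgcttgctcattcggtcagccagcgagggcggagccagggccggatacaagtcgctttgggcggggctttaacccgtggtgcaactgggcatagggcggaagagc
In Cdc20, Ttk and Ccnb2 the CHR match lies downstream of more than 1 CCAAT box or between them, and in Espl1 and Kif11 it follows a single ATTGG. The letters are a description of the sequence, and binding was not measured in these cells. All 18 genes with both motifs were below 0, with a median log2 fold change of -0.21. The 9 genes whose window lacks the pair had a median of -0.15 with 7 below 0, and the 9 genes without a window had -0.20 with 8 below 0. The motif groups were not tested against each other.

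**Figure D5:**
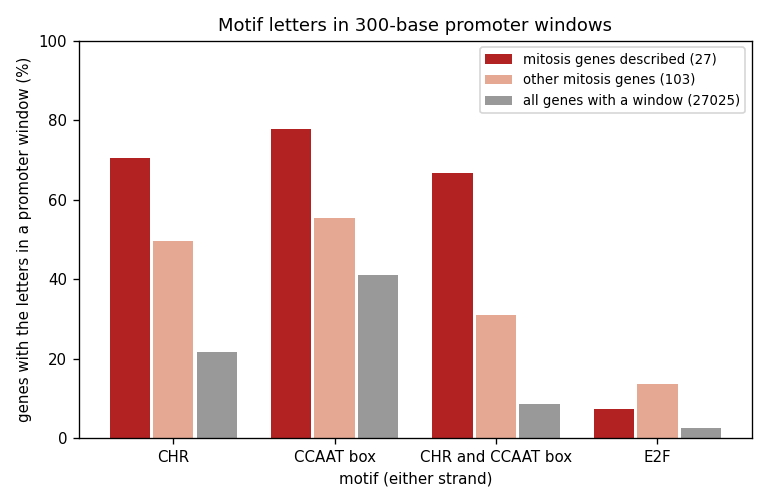
Share of genes (%, y axis) whose 300-base promoter window holds CHR, CCAAT box, both, or E2F letters on either strand, for 27 of the mitosis genes, 103 further mitosis genes and all 27025 genes with a window. Both CHR and CCAAT letters stand in a window of 66.7%, 31.1% and 8.61% of these genes.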

How the data were processed

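RNA-seq of 12 libraries, 3 from each of 4 lines, was analysed from the whole-number read counts per gene that the authors deposited, not normalized. Per the submitters' processing notes, the build was GRCm38 and the tools were HTSeq 0.6.0, HISAT2 2.1.0, Bowtie2 2.2.3 and bcl2fastq. The role of each, the strand setting and the annotation are not given in these sources. The 36 genes and all gene and marker lists were chosen with earlier results of these data known. Genes given in every library were, per role, the gene of smallest unadjusted p and that of highest mean CPM; Ttk, Dlgap5 and Pttg1 were added after their values were seen.

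The genotype was tested on the summed counts of each line with edgeR 4.0.16 in R 4.3.3 (quasi-likelihood test, TMM, filterByExpr, Benjamini-Hochberg adjustment over all genes at 0.05). For pairs of lines, edgeR was fitted to all 12 libraries with 4 line groups. Its p-values measure only the spread between libraries of a line, which the design text calls technical replicates. Alternatives used DESeq2 1.42.0 and limma 3.58.1 (voom, line as random block, with or without the feeder share as covariate), other scaling, no filter, left-out libraries and lines, and the replicate number as a block. Of these, the edgeR test on line totals and that of Mut-1 against WT-1 were checked on simulated data. The DESeq2, limma and replicate block fits were not. Positions and exon lengths came from GENCODE M21. CPM are TMM-scaled.

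Same-numbered libraries deviated together between Mut-1 and Mut-2 (correlation 0.139 to 0.493), Mut-1 and WT-2 (0.288 to 0.404), Mut-2 and WT-2 (0.114 to 0.695) and WT-1 and WT-2 (0.194 to 0.621). This did not hold for every number between Mut-1 and WT-1 (-0.130 to 0.217), nor for any between Mut-2 and WT-1 (-0.288 to -0.105). WT-1 replicates 1 and 2 were closer to each other (chi-square per degree of freedom 1.62) than any other libraries of a line (10.9 to 38.4), but still differed by more than sampling noise and were kept as separate libraries. With them summed to 1 library, genes called in Mut-1 against WT-1 numbered 15 in place of 54. Libraries of different lines differed by 9.83 to 51.6 per degree of freedom, a range that overlaps the one within lines. WT-1 replicate 3 was closer to WT-2 replicate 3 (9.83) than to WT-1 replicates 1 and 2 (38.4 each). Whether the spread within lines is technical was not tested.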

Additional observations from a re-analysis of the deposited data

How the results depend on the processing

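The number of genes called by genotype over the whole table, 0 on line totals, was 1 with relative log expression scaling, 77 without a filter on low counts, 361 with DESeq2, 226 with limma, 32 with limma and the feeder share, and 319 with the replicate number as a block on 12 libraries. It was 15 with limma without the 3 feeder-rich libraries, an alternative chosen after seeing the data. Leaving out a line gave 158 (Mut-1), 92 (Mut-2), 53 (WT-1) and 0 (WT-2). Leaving out single libraries gave 0 to 96, with 96 without Mut-1 replicate 3 and 11 without Mut-2 replicate 3. Of the 36 mitosis genes 1, Mad2l1, was called with limma and 1, again Mad2l1, with the replicate block. In Mut-1 against WT-1, 1 was called without a filter (Aurkb) and 0 to 1 when single libraries were left out. In Mut-2 against WT-2, DESeq2 called 1 (Bub1). The replicate block changed no other call of a member. In the genotype comparison 26 to 34 members were below 0 under every alternative run. Of 338 alternative values for 13 genes, 330 kept their sign and side of the threshold. None of the 13 was called in the main test, so keeping that side meant staying uncalled. A value of the same sign counted as kept whatever its size. Ccnb1 was at 0.094 without the feeder-rich libraries and 0.021 in limma without them. Cdc20 was at 0.20 and 0.11 in these fits, 0.077 with the feeder share as covariate, and -0.20 (without Mut-2 replicate 3) to 0.024 (without Mut-2 replicate 1) when single libraries were left out. The causes were not tested. No member had under 600 counts in a library, and whether depth or the number of lines limits precision more was not tested.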

Other observations

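Of the 7 genes of cyclin-dependent kinase inhibitors, 5 were above 0 and 2 below 0 in the mutant lines. Below 0 were 50.2% of all genes. Their median log2 fold change was 0.10, and none of the 7 was called by edgeR. At an unadjusted p under 0.05, 2 of the 7 were higher, against 9.17% of all genes. In Mut-1 against WT-1, 4 of 7 were above 0 (median 0.34), and in Mut-2 against WT-2, 3 of 7 were (median -0.16). Cdkn2b, an inhibitor of Cdk4 and Cdk6, had 21.7 ± 4.42 CPM in mutant and 14.1 ± 0.897 CPM in wild-type lines (SD, n = 2 each; log2 fold change 0.63, edgeR adjusted p = 0.240). Cdkn2a, which encodes a related inhibitor and Arf, had 56.5 ± 0.974 CPM in mutant and 47.0 ± 3.30 CPM in wild-type lines (SD, n = 2 each; log2 fold change 0.27, edgeR adjusted p = 0.372). The fibroblast markers were also above 0, at a median of 0.58, and their part in these values was not tested.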
